A study of Mus musculus with 14 samples.

Results

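All 14 RNA-seq libraries of mouse carotid artery were compared by whether their Poldip2 mRNA was low or high, in the endothelium-enriched RNA and in the rest of the vessel wall at once. The low set held 6 libraries and the high set 8, which together are every library of the series. Each set is made of whole labelled groups, and the low group of each fraction was chosen by its Poldip2 count, so that level is a description here and was not tested. For every other gene, the low-minus-high effect was estimated in each fraction, and the mean of both effects and their difference were tested.

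The RNA came from carotid arteries of 10-week-old C57BL/6 mice on standard chow. The lumen was flushed with the lysis reagent Qiazol, which gave an endothelium-enriched fraction, called the flushed fraction here. RNA was also taken from the left-over artery, which holds the media with its smooth muscle cells and the adventitia. In the flushed fraction, the high set was the 4 libraries from littermate controls, titled Poldip2-floxed, and the low set was the 4 libraries from mice with an endothelial Poldip2 knockout (Poldip2-EC-/-). In the left-over artery, the high set was the 4 libraries that the labels call smooth muscle knockout (Poldip2-SMC-/-), and the low set was the 2 libraries labelled littermate control. The left-over labels thus run opposite to the Poldip2 level, and those libraries are called labelled knockout and labelled control throughout. The authors' deposited table treats those same 4 libraries as its smooth muscle controls: its control mean was theirs in 14805 of 14805 genes at 1 FPKM or more, within a tolerance of 1e-06. The sources used here do not give the Cre driver of either knockout or the time of day at which arteries were collected. Each library carries a number, and 3 numbers occur in both fractions, as a control in the flushed fraction and as a labelled knockout in the left-over artery; the labels do not say whether a number is an animal. Nothing in the labels says that repeats came from separate mice, so p-values measure the spread between these libraries.

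Poldip2 (polymerase delta-interacting protein 2) was found as a partner of DNA polymerase delta and PCNA, and it is also known in mitochondria, where it bears on protein lipoylation through the ClpXP protease, and in smooth muscle as a regulator of the NADPH oxidase Nox4. Among the genes that follow are parts of the circadian clock, in which CLOCK and BMAL1 (gene Arntl) bind E-box sequences and drive their own repressors and output factors, while REV-ERB receptors (Nr1d1, Nr1d2) hold down Arntl and Nfil3. Others are heat shock chaperones, which fold proteins and are induced by the factor HSF1, and genes of the integrated stress response around ATF4.

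Poldip2 itself (ENSMUSG00000001100, chr11:78512193-78522736 on the plus strand, GRCm38 coordinates as deposited) stood at 46.3, 43.7, 48.3 and 59.8 CPM (read counts scaled to a common library total) in the flushed high libraries and at 36.5, 24.8, 25.6 and 21.5 CPM in the flushed low libraries. In the left-over artery it stood at 55.0, 51.8, 68.8 and 70.8 CPM in the high libraries and at 27.4 and 23.5 CPM in the low libraries. No low library reached the lowest high library of its fraction, the nearest being endothelial knockout 1 at 36.5 against 43.7 CPM. The low libraries averaged 54.7% of the high level in the flushed fraction and 41.3% in the left-over artery, which is a log2 effect of -0.87 and -1.27. In bulk RNA, fewer cells of a type and less RNA per cell cannot be told apart, so these shares are not shares of recombined cells. Of 14 other tested genes within 200 kb of Poldip2, a set chosen after their values were seen, none passed at an adjusted p under 0.05 in edgeR; Tnfaip1 had the lowest unadjusted p, with a mean effect of -0.27 (edgeR adjusted p = 0.415).

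Library depth ran from 15019891 to 23287155 counts. The summed level of 15 endothelial markers was 18260 to 21510 CPM in the flushed libraries against 315 to 1320 CPM in the left-over ones, and that of 14 smooth muscle markers was 9056 to 11470 CPM in the left-over libraries against 559 to 937 CPM in the flushed ones, so both fractions carried their labelled tissue. Several cell type levels differed on average between the sets, with ranges that overlapped. Smooth muscle markers in the flushed fraction summed to 559 to 672 CPM in the high and 667 to 937 CPM in the low libraries. Adventitial fibroblast markers there summed to 4245 to 7253 CPM in the high libraries and to 2796, 3059 and 3065 CPM in 3 low libraries, with endothelial knockout 1 at 6672 CPM. Endothelial markers in the left-over artery summed to 315 to 1028 CPM in the high and to 869 and 1320 CPM in the low libraries. Adipocyte markers summed to 971 to 3500 CPM in the left-over high and to 7274 and 3114 CPM in the low libraries. Red blood cell markers there summed to 640 to 2344 CPM against 371 and 765 CPM; all 7 had a mean effect below 0, with a left-over median of -1.19, 0 at an unadjusted p under 0.05 and 0 called by edgeR, DESeq2 or limma voom. Of 9 tested lymphocyte markers, 8 were below 0, 3 of them at that p, and 0 were called by these tools, and their sums of 30.0 to 56.8 CPM in the high and 38.3 and 37.7 CPM in the low left-over libraries overlapped. The part of these cells in the results was not tested. No endothelial, smooth muscle or fibroblast marker was at 0 in every library of either fraction.

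Across 21464 genes tested with edgeR's quasi-likelihood test, 55 passed for the mean effect at a Benjamini-Hochberg adjusted p under 0.05, which is 0.256% of the genes. Poldip2 is 1 of the 55 by the choice of the sets and is left out of the other 54 and of counts among them. Totals of genes called in a whole fit, and percentages of all tested genes, hold it where it passed. Of the other 54, 32 were higher and 22 lower in the low set. That split rested on single libraries: with Poldip2 counted, 36 were higher and 95 lower without endothelial knockout 1, 1 was higher and 6 lower without endothelial control 1 and likewise without endothelial control 3, 2 were higher and 5 lower without left-over labelled control 2, and 80 were higher and 25 lower without left-over labelled knockout 4. The median mean effect of all genes was -0.03. Both fraction effects had the sign of the mean in 52 of the 54, and the left-over effect was the larger in 47. Taken alone, the left-over effect passed in 204 genes (0.95%; 129 higher, 0.601%, and 75 lower, 0.349%), of which 44 were among the 54, and the flushed effect passed in 4 genes (0.0186%; 1 higher, 0.00466%, and 3 lower, 0.014%), of which Spon2 was the 1 also called for the mean. At an unadjusted p under 0.05, the flushed effect had the direction of the mean in 29 of the 54; 5.77% of all genes reached that p, 1.73% with a higher and 4.04% with a lower level. Both fractions enter the mean, so these counts describe how it is made up. The difference of the effects passed in 3 genes (0.014%), higher in 2 (0.00932%) and lower in 1 (0.00466%). The plot of both effects shows most called genes with a small flushed and a larger left-over effect.

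**Figure D1:**
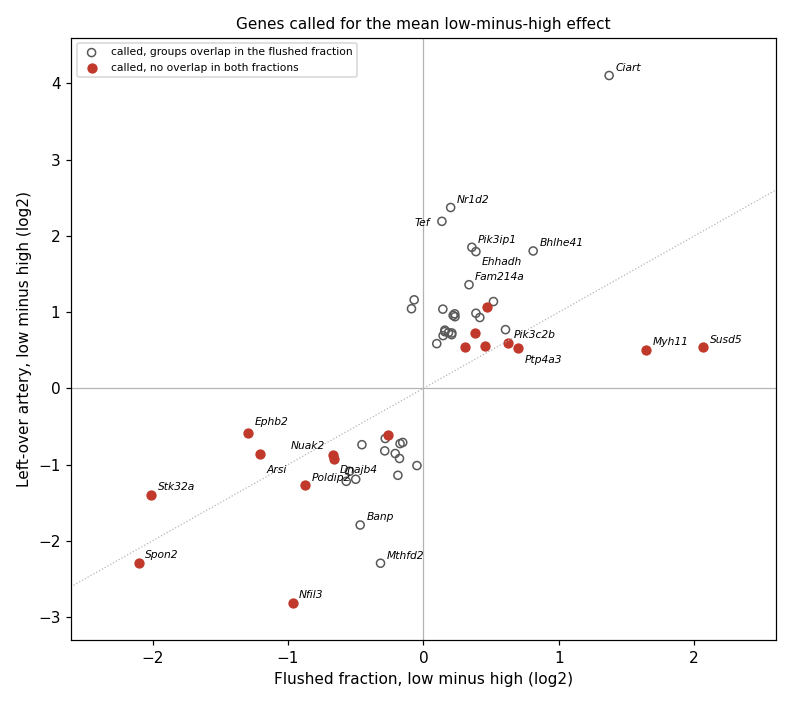
The 54 genes called for the mean effect and Poldip2, with the low-minus-high log2 effect in the flushed fraction on the horizontal and in the left-over artery on the vertical axis; the dotted line marks equal effects. Filled points are Poldip2 and the 16 called genes whose low and high libraries did not overlap in both fractions. Spon2 and Stk32a lie near the line at the lower left, and Myh11 and Susd5 lie far to the right. Ciart, Nr1d2 and Tef lie high, and of these Nr1d2 and Tef have small flushed effects.

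In 16 of the 54 genes, low and high libraries did not overlap in both fractions; that holds with the same direction in both for 93 of the 21463 tested genes other than Poldip2, and for 0.438% with Poldip2 counted. Of the 16, 8 were lower and 8 higher in the low set. All 54 were without overlap in the left-over artery, where 20.9% of all genes were. In the flushed fraction 16 were, where 3.49% of all genes were. The calls come from the same libraries, so a call itself favours lack of overlap. The 16 were named because they do not overlap, so that is no further result where each is described.

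Spon2 (spondin 2, ENSMUSG00000037379, chr5:33213518-33218238), a secreted matrix protein, had the lowest mean effect of the genes named by the rule. It stood at 2.19, 2.53, 3.18 and 2.13 CPM in the flushed high libraries and at 0.626, 0.458, 0.406 and 0.833 CPM in the flushed low libraries. Its left-over levels were 9.35, 12.0, 19.0 and 16.4 CPM in the high libraries and 3.83 and 1.95 CPM in the low libraries. Every low library was below every high library of its fraction, and the low set kept 23.2% of the flushed and 20.4% of the left-over level. The mean effect was -2.20 ± 0.25 (log2, SE; edgeR adjusted p = 0.00109), from -2.10 in the flushed fraction and -2.29 in the left-over artery. Spon2 was the gene that passed on its own in both fractions (edgeR adjusted p = 0.0406 and 0.017). The flushed values rest on 8 to 15 reads in the low and 38 to 49 reads in the high libraries.

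Stk32a, a serine/threonine kinase, Arsi, a sulfatase family member, and Ephb2, a receptor for ephrin-B ligands, shared this form at a low level. Stk32a stood at 1.15, 1.15, 1.69 and 0.558 CPM in the flushed high libraries against 0.365, 0.306, 0.305 and 0.111 CPM in the low ones. The left-over levels were 22.6, 20.4, 26.1 and 26.4 CPM against 10.99 and 7.12 CPM. The flushed low libraries held 2 to 7 Stk32a reads each, close to the floor of 3 reads, so that part of its mean effect of -1.70 ± 0.24 (edgeR adjusted p = 0.00645) is imprecise. Ephb2 fell by 0.94 in the mean (edgeR adjusted p = 0.0276), from 1.10 to 1.67 CPM in the flushed high libraries to 0.458 to 0.660 CPM in the low ones, and from 18.8 to 23.2 CPM in the left-over high libraries to 15.8 and 11.6 CPM. Arsi fell by 1.04 in the mean (edgeR adjusted p = 0.0286). All 3 were more than 10 times as abundant in the left-over high libraries as in the flushed high ones.

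Dnajb4, a co-chaperone of the HSP40 family, was lower at a high level of expression in both fractions. It stood at 140, 122, 121 and 99.2 CPM in the flushed high libraries and at 69.6, 80.3, 86.4 and 68.6 CPM in the low ones. The left-over artery held 172, 138, 136 and 129 CPM in the high libraries and 64.8 and 86.0 CPM in the low ones. The 4 low flushed libraries and the 2 low left-over libraries covered nearly the same range, 64.8 to 86.4 CPM, and lay under all high libraries. The mean effect was -0.80 ± 0.11 (edgeR adjusted p = 0.00507), with -0.66 in the flushed fraction and -0.93 in the left-over artery.

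Nuak2, a kinase of the AMPK family, fell by 0.77 in the mean (edgeR adjusted p = 0.0485), from 2.69 to 4.86 CPM in the flushed high libraries to 1.83 to 2.61 CPM in the low ones, and from 15.4 to 19.8 CPM to 8.91 and 10.8 CPM in the left-over artery. Its call was kept in 1 of the 14 fits that each left out 1 library, with adjusted p-values up to 0.278. Ints8, a subunit of the Integrator complex that cuts small nuclear RNAs, fell by 0.44 (edgeR adjusted p = 0.0278). Its levels were 94.8 to 100.9 CPM in the flushed high and 68.7 to 88.0 CPM in the flushed low libraries, and 54.6 to 63.4 CPM against 41.2 and 35.8 CPM in the left-over artery. Nfil3 is described with the clock genes.

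**Figure D2:**
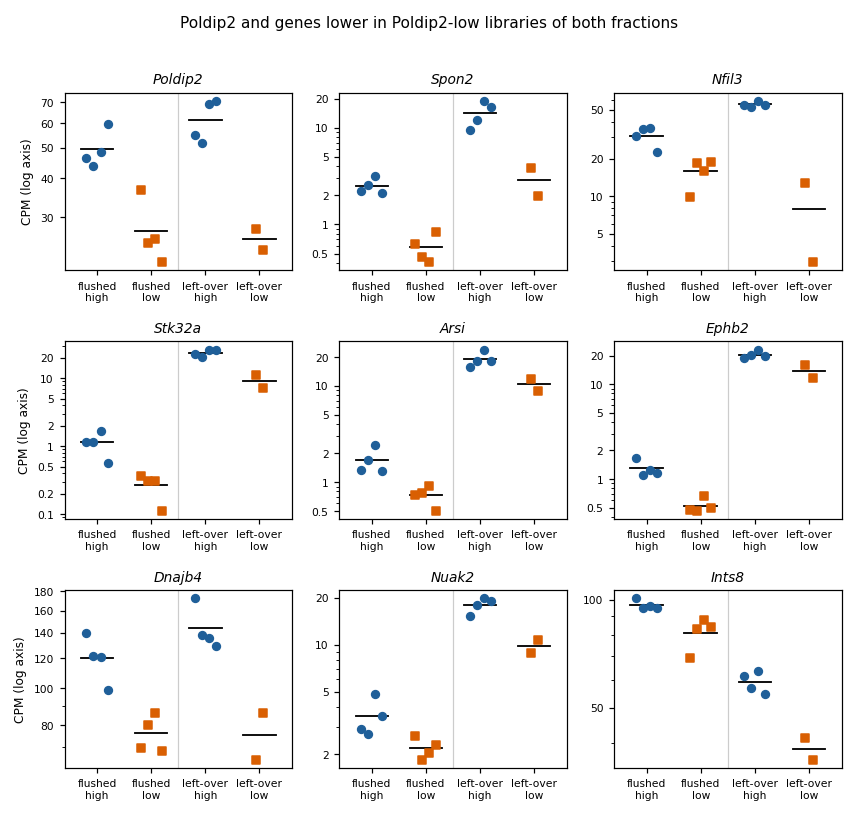
CPM per library (log axis) of Poldip2 and the 8 other genes lower in the low set without overlap in both fractions; circles are high and squares low libraries, lines are group means, and the grey line parts the fractions. For Stk32a, Arsi and Ephb2 the flushed high libraries lie more than 10 times below the left-over high ones and for Spon2 the gap is smaller, whereas Dnajb4 and Ints8 are well expressed in both.

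Myh11, the smooth muscle myosin heavy chain, and Susd5, a sushi-domain protein, were the genes with the largest rise among those without overlap. Myh11 stood at 7.50, 3.90, 8.23 and 8.88 CPM in the flushed high libraries and at 31.4, 23.7, 16.6 and 17.4 CPM in the low ones. Left-over levels were 469, 570, 429 and 368 CPM against 667 and 637 CPM. The low libraries were above all high ones in each fraction, but the left-over ranges lay closer, 142% of the high mean against 313% in the flushed fraction. The mean effect was 1.08 ± 0.19 (edgeR adjusted p = 0.0312), with 1.64 in the flushed fraction and 0.51 in the left-over artery. Susd5 stood at 0.384 to 1.42 CPM in the flushed high libraries and at 2.44 to 5.27 CPM in the low ones, and at 66.5 to 119 CPM against 138 and 135 CPM in the left-over artery, with a mean effect of 1.30 ± 0.22 (edgeR adjusted p = 0.0286). Neither left-over effect passed on its own (edgeR adjusted p = 0.485 for Susd5 and 0.545 for Myh11).

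Other smooth muscle genes were higher in the flushed low libraries by unadjusted p. Of the 14 smooth muscle markers, 8 had an unadjusted p under 0.05 there with a higher level in the low set and 0 with a lower one, and their median flushed effect was 0.67 against -0.01 for all genes. Their left-over median was 0.11 against -0.03 for all genes. Myh11 was the 1 marker called for the mean in edgeR, while DESeq2 called 2 and limma voom 1, all higher. Cnn1 (calponin) had flushed and left-over effects of 1.52 and -0.06, and Acta2 (smooth muscle actin) of 0.69 and -0.04. The part of smooth muscle RNA in the flushed Myh11 and Susd5 values was not tested.

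Ptp4a3, a membrane-bound phosphatase, and Pik3c2b, a class II phosphoinositide kinase, had effects of almost the same size in both fractions. Ptp4a3 stood at 57.1, 41.7, 53.3 and 49.3 CPM in the flushed high libraries against 91.8, 77.6, 75.3 and 82.5 CPM in the low ones, and at 30.7, 31.0, 39.7 and 46.5 CPM against 49.8 and 57.1 CPM in the left-over artery. All low libraries were above the high ones, by a narrow margin in the left-over artery. Its mean effect was 0.62 ± 0.10 (edgeR adjusted p = 0.0278), with 0.70 and 0.53 in the 2 fractions. Pik3c2b rose by 0.61 in the mean (edgeR adjusted p = 0.0286), with 0.62 and 0.60, from 39.1 to 46.0 CPM to 54.2 to 78.0 CPM in the flushed fraction and from 3.65 to 5.31 CPM to 6.10 and 6.93 CPM in the left-over artery.

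Grasp, a scaffold protein that binds the ARF exchange factor GRP1, rose by 0.77 (edgeR adjusted p = 0.0276), from 85.8 to 115 CPM to 129 to 185 CPM in the flushed and from 11.1 to 19.0 CPM to 31.0 and 33.5 CPM in the left-over artery. Slc25a16, a mitochondrial carrier, rose by 0.55 (edgeR adjusted p = 0.0312), and Uri1, a prefoldin-like protein, by 0.42 (edgeR adjusted p = 0.035). H3f3b, a gene for histone H3.3, rose by 0.51 (edgeR adjusted p = 0.0296), from 552 to 709 CPM to 747 to 1066 CPM in the flushed fraction and from 378 to 446 CPM to 597 and 595 CPM in the left-over artery; near-identical copies of histone H3.3 exist in the genome, so its reads may be shared. In these 4 genes the lowest low library was above the highest high library of its fraction, with the closest gap in Uri1, 39.2 against 39.0 CPM in the flushed fraction.

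**Figure D3:**
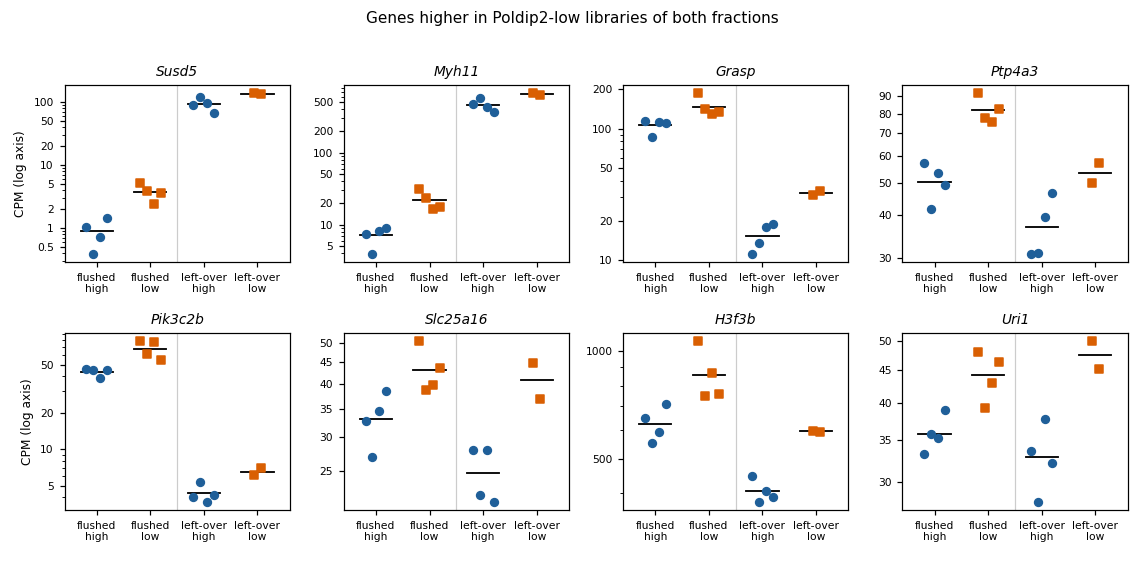
CPM per library (log axis) of the 8 genes higher in the low set without overlap in both fractions; circles are high and squares low libraries, lines are group means, and the grey line parts the fractions. Susd5 and Myh11 are mainly left-over genes whose flushed level rises most, Grasp and Pik3c2b are mainly flushed genes, and Ptp4a3, Slc25a16, H3f3b and Uri1 are expressed in both.

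By their levels in the high libraries, the called genes that rose were mostly genes of the flushed fraction. Those libraries also set the called effects. A low level in the left-over high libraries favours both, so the shares are not independent of the calls. Of the 32, 20 (62.5%) were more than 2 times as high in the flushed high libraries as in the left-over high ones, against 18.8% of all genes, and 2 (6.25%) were more than 2 times as high in the left-over ones, against 35.7%. Of the 22 that fell, the counts were 1 (4.55%) and 7 (31.8%). Cav2, a caveolin, was one such gene: it stood at 1139 to 1454 CPM in the flushed high and 1370 to 1453 CPM in the flushed low libraries, and at 160 to 204 CPM against 290 and 271 CPM in the left-over artery. Its mean effect of 0.42 (edgeR adjusted p = 0.0364) came from 0.15 and 0.69. The 15 endothelial markers had a median left-over effect of 0.62, with 0 called for the mean by edgeR, DESeq2 or limma voom, 2 at an unadjusted p under 0.05 and 3 (20%) higher without overlap there, against 12.1% of all genes. Their summed left-over level, given above, overlapped between the sets. The part of endothelial RNA in the left-over effects of these genes was not tested.

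Among the gene lists, those of the circadian clock held the most called genes. Of 12 clock output genes and repressors, 4 rose (Nr1d2, Bhlhe41, Tef and Ciart) and 0 fell, beside 0.256% of all genes called in either direction; of 8 clock activators with Nfil3, 1 fell (Nfil3) and 0 rose. The 12 had a median mean effect of 1.17, from 0.28 in the flushed fraction and 1.92 in the left-over artery, and 11 were positive. The 8 had medians of -0.56, -0.41 and -1.0. Their list also holds Cry1, itself a clock repressor, with a mean effect of -0.60 (edgeR adjusted p = 0.343). In the left-over artery, 9 of the 12 (75%) were higher in both low libraries than in all high ones, against 12.1% of all genes; in the flushed fraction that held for 0 of the 12. DESeq2, run on the same design, called 9 of the 12 higher and 2 of the 8 lower, beside 426 genes in all. Limma voom called 2 of the 12 higher and 1 of the 8 lower, beside 50 genes in all.

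Nr1d2, which encodes REV-ERB beta, had the smallest p of all genes. It stood at 228, 225, 333 and 343 CPM in the flushed high libraries and at 341, 316, 325 and 316 CPM in the low ones. Left-over levels of Nr1d2 were 32.03, 41.4, 34.7 and 29.5 CPM in the high libraries and 139 and 218 CPM in the low ones. The flushed sets overlapped, with 2 high libraries at the level of the low ones, while the left-over sets lay far apart. The mean effect was 1.29 ± 0.13 (edgeR adjusted p = 3.03e-04), with 0.20 and 2.37. Its difference between fractions passed too, at 2.17 ± 0.25 (edgeR adjusted p = 0.00331), so the rise was larger in the left-over artery.

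Tef, a transcription factor driven by the clock, stood at 275 to 492 CPM in the flushed high and 328 to 552 CPM in the low libraries, and at 33.8, 34.1, 43.2 and 56.7 CPM against 141 and 242 CPM in the left-over artery. Ciart, a repressor of CLOCK and BMAL1, stood at 1.61 to 4.82 CPM in the flushed high and 3.78 to 15.2 CPM in the low libraries, and at 0.354 to 0.823 CPM against 2.63 and 17.0 CPM in the left-over artery. Bhlhe41, another repressor (DEC2), stood at 3.06 to 5.17 CPM against 3.22 to 8.93 CPM, and at 3.52 to 4.12 CPM against 8.55 and 18.0 CPM. In each of these 3 the flushed sets overlapped, and of the low libraries left-over labelled control 2 was the highest of its pair. Their mean effects were 1.16 for Tef (edgeR adjusted p = 0.0286), 2.74 for Ciart (edgeR adjusted p = 0.0422) and 1.31 for Bhlhe41 (edgeR adjusted p = 0.0286). Dbp, the output gene with a mean effect of 3.17, did not pass (edgeR adjusted p = 0.054), and Per1 and Per2 had mean effects of -0.03 and 0.15.

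Nfil3, a repressor that acts against Dbp and Tef at their shared D-box sites, moved the other way. It stood at 30.6, 34.9, 35.5 and 22.6 CPM in the flushed high libraries and at 9.91, 18.7, 16.0 and 18.8 CPM in the low ones, and at 54.4, 52.9, 59.1 and 54.6 CPM against 12.8 and 2.93 CPM in the left-over artery. Low and high libraries did not overlap in either fraction. The mean effect was -1.89 ± 0.29 (edgeR adjusted p = 0.0286), with -0.96 and -2.82. Arntl had a mean effect of -1.48 that did not pass (edgeR adjusted p = 0.248); its left-over levels were 53.1 to 65.6 CPM against 23.9 and 5.68 CPM, and its flushed levels of 15.3 to 56.6 CPM and 4.75 to 27.2 CPM overlapped.

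**Figure D4:**
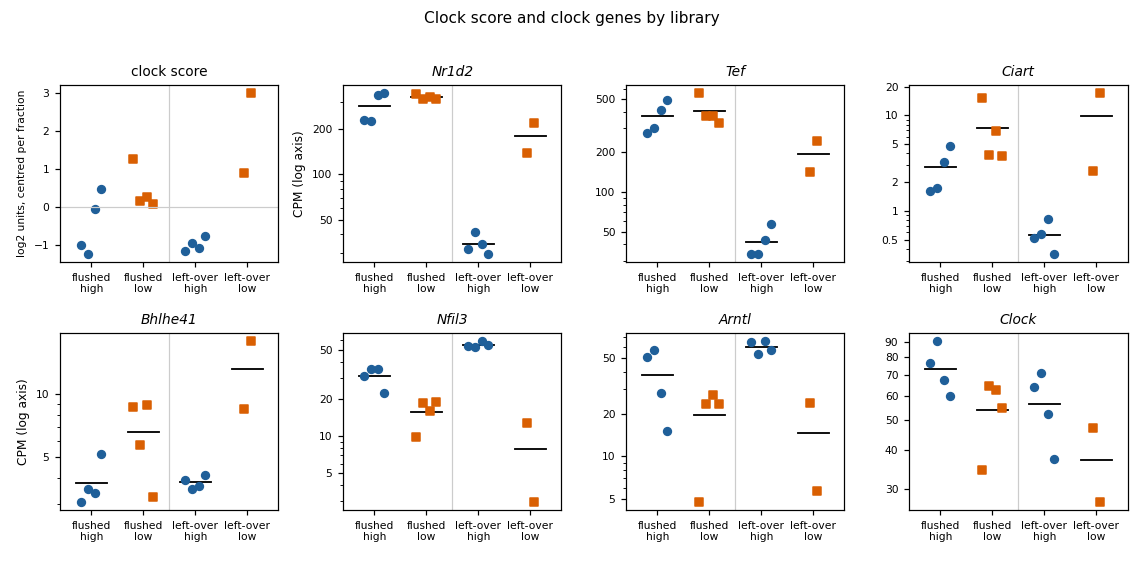
Clock score and CPM of 7 clock genes (log axis) by library. The score is the mean log2 CPM of 12 output genes less that of 8 genes, activators with Nfil3 and Cry1. It was centred within each fraction. Circles are high and squares low libraries, and lines are group means. The left-over low libraries stand apart from the high ones in the score and in 6 of the genes, all except Clock, and differ from each other; in the flushed fraction the sets overlap except in Nfil3.

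The clock genes varied between libraries of the same set as well. The score, output genes less the list of activators with Nfil3 and Cry1, was centred within each fraction. It was -0.982, -1.233, -0.0478 and 0.494 log2 units in the flushed high libraries and 1.264, 0.160, 0.259 and 0.0872 in the low ones. In the left-over artery it was -1.145 to -0.758 in the high libraries and 0.903 and 2.999 in the low ones. The score followed the sets without overlap in the left-over artery and with an overlap made by endothelial control 4 in the flushed fraction. With the score as a covariate, edgeR called 0 genes for the mean effect (smallest adjusted p = 0.135), and 3.74% of genes had an unadjusted p under 0.05 against 12.8% without it; the score was made from these genes and was nearly aligned with the sets. Under that covariate the mean effect was -1.86 for Spon2, -0.74 for Dnajb4 and -1.28 for Mthfd2, close to the values without it. For Tef it was 0.26 and for Ciart 0.18. These genes do not stand for all called genes, and none was called in that fit. Over 11 alternatives other than single omissions, the smallest effect was 0.71 for Nr1d2, 0.30 for Cdc25b and -0.85 for Nfil3. Since the score nearly follows the sets, this fit cannot part a clock effect from a set effect.

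Promoters of 3 clock genes that rose together are shown because they carry the E-box CACGTG, which CLOCK and BMAL1 bind, and that of Dnajb4 because it carries the paired heat shock motif TTCNNGAA. The sequences are RefSeq windows of GRCm38.p6 that run from 250 bases before to 50 bases after an annotated start, with the motif in capitals, at chr3:95882179-95882478 (minus strand) for Ciart, chr15:81802423-81802722 (plus strand) for Tef, chr6:145865371-145865670 (minus strand) for Bhlhe41 and chr3:152193796-152194095 (minus strand) for the second promoter of Dnajb4.
Ciart: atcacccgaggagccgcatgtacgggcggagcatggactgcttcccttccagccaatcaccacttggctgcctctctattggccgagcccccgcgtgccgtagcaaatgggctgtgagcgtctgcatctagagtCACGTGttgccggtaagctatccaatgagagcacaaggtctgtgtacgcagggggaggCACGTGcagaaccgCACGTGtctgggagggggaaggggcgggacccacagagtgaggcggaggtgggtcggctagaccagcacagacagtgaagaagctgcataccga
Tef: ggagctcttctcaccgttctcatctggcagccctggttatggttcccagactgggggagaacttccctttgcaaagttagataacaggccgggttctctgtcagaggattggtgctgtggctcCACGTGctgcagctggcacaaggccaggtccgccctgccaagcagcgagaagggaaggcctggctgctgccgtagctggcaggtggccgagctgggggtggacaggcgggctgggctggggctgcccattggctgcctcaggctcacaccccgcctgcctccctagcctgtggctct
Bhlhe41: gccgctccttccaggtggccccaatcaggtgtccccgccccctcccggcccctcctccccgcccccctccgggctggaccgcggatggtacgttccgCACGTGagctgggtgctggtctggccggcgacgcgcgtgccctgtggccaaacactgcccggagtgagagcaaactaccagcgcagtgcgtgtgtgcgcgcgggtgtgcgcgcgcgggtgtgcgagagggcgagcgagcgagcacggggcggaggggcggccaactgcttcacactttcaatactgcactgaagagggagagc
Dnajb4: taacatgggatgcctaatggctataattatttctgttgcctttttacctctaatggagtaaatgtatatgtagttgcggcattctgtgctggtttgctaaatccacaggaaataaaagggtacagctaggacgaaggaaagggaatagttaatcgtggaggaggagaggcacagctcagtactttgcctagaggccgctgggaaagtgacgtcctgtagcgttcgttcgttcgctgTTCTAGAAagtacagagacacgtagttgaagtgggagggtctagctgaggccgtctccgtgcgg
Both strands were searched, and both motifs read the same on either strand. Of the 54 called genes, 40 had a promoter in the table. CACGTG was in the first promoter of 5 of the 27 genes that rose (18.5%; Ciart, Tef, Bhlhe41, Ktn1 and Fam214a), of 0 of the 13 that fell, and of 7.24% of 27025 genes in all; Ciart held it 3 times, 116, 58 and 44 bases before the start. TTCNNGAA was in the first promoter of 1 of the 27 (Casp4) and 1 of the 13 (Tuba1c), against 8.40% of all genes. Dnajb4 is not in that count, since it held the motif in its second promoter and not in its first, 14 bases before the second start. The longer heat shock element of alternating units, the D-box TTANGTAA and the ATF4 motif TGATGNAA were in none of the 40. The motifs were chosen after the gene values were seen, a match is not a binding site, and no match says only that these letters are not in the window.

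Among cytosolic heat shock chaperones, 2 genes fell. Of 23 tested, 2 passed for the mean effect, Dnajb1 and Dnajb4, both lower, and all 23 had a mean effect below 0, with medians of -0.76 for the mean, -0.33 in the flushed fraction and -1.19 in the left-over artery; the 3 genes that passed for the difference between the fractions in edgeR hold no chaperone. Both left-over low libraries were below all high ones in 21 of the 23 (91.3%), against 8.77% of all genes; in the flushed fraction that held for 1 of the 23. Their mean log2 CPM was 6.99 to 7.75 in the left-over high libraries and 6.11 and 6.13 in the low ones, and 6.69 to 8.09 against 6.27 to 7.17 in the flushed fraction, where the sets overlapped. At an unadjusted p under 0.05, 15 of the 23 were lower in the mean and 0 higher. DESeq2 called 12 and limma voom 2, all lower.

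Dnajb1, the HSP40 partner of inducible HSP70, stood at 195, 165, 207 and 130 CPM in the flushed high libraries and at 89.4, 134, 124 and 121 CPM in the low ones, and at 132, 99.1, 116 and 124 CPM against 45.2 and 55.9 CPM in the left-over artery. The flushed sets overlapped by 1 high library, endothelial control 4. The mean effect was -0.89 ± 0.12 (edgeR adjusted p = 0.00645). Hsph1 and Hspa8, of the HSP110 and HSP70 families, had larger left-over effects of -3.12 and -2.19 but did not pass for the mean (edgeR adjusted p = 0.163 and 0.155). Hspa1a and Hspa1b, near-identical copies whose reads cannot be parted with certainty, had mean effects of -1.96 and -2.20 (edgeR adjusted p = 0.179 and 0.284). Chaperones of the endoplasmic reticulum had 0 of 20 called by edgeR or limma voom (7 lower at an unadjusted edgeR p under 0.05, and 4 called lower by DESeq2). Their median was -0.01 in the flushed fraction and -0.53 in the left-over artery.

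In the ATF4 response, 3 of 22 genes passed for the mean effect, all lower: Mthfd2, Atf4 and Ddit3. Mthfd2, a mitochondrial folate enzyme, stood at 32.1, 61.2, 32.3 and 43.1 CPM in the left-over high libraries and at 9.75 and 7.44 CPM in the low ones, while its flushed levels of 2.36 to 4.99 CPM and 2.56 to 2.89 CPM overlapped. Its mean effect was -1.31 ± 0.19 (edgeR adjusted p = 0.0108), with -0.32 and -2.29. Atf4, the transcription factor itself, stood at 142 to 153 CPM against 69.6 and 85.9 CPM in the left-over artery and fell by 0.55 in the mean (edgeR adjusted p = 0.0278). Ddit3, which encodes the stress factor CHOP, fell by 0.66 (edgeR adjusted p = 0.0296). The serine synthesis genes Phgdh and Psat1, targets of ATF4, had mean effects of 0.01 and -0.12, and the median over the 22 was -0.21.

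Fkbp5 and Cdkn1a stood among 16 genes, made up of the glucocorticoid receptor gene Nr3c1 and genes that glucocorticoids induce. Of the 16, 0 passed for the mean effect in edgeR or limma voom, 2 were called lower by DESeq2 and 15 were below 0. Nr3c1 was the 1 above 0, at 0.31 (edgeR adjusted p = 0.229). The median was -0.62 for the mean, -0.46 in the flushed fraction and -0.53 in the left-over artery. Fkbp5, a co-chaperone that glucocorticoids induce, stood at 176 to 371 CPM in the left-over high libraries against 71.4 and 69.3 CPM, and at 25.8 to 143 CPM against 25.5 to 71.4 CPM in the flushed fraction. Cdkn1a, the cell cycle inhibitor p21, stood at 127 to 183 CPM against 40.4 and 34.6 CPM, and at 27.0 to 105 CPM against 19.7 to 44.1 CPM. Their mean effects were -1.28 (edgeR adjusted p = 0.216) and -1.60 (edgeR adjusted p = 0.0692).

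**Figure D5:**
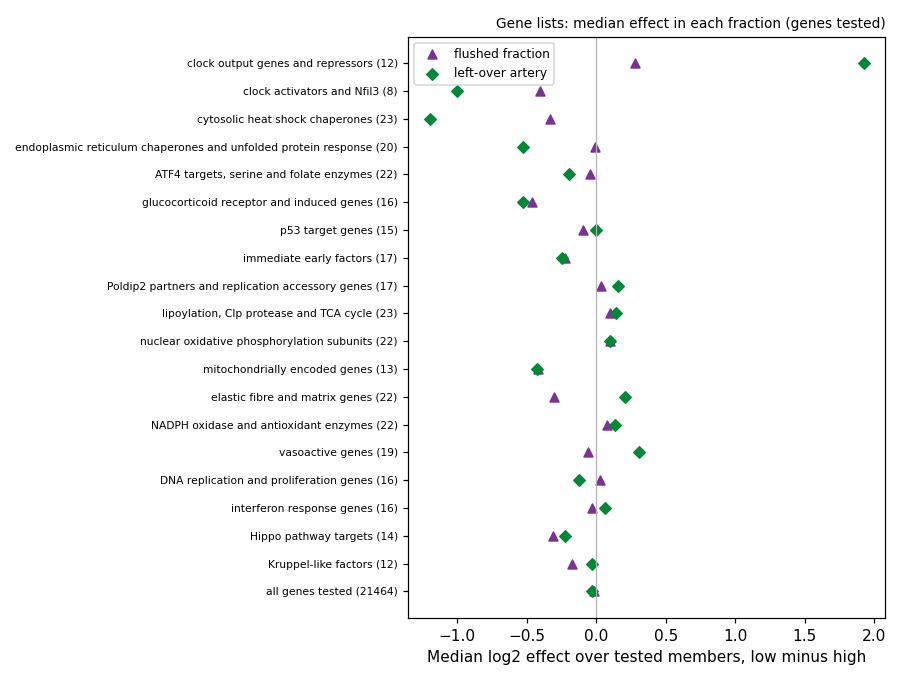
Median low-minus-high log2 effect over the tested members of each pathway list (cell type marker lists are not plotted), in the flushed fraction (triangles) and in the left-over artery (diamonds), with the number of genes tested in brackets. Of the plotted lists, those of clock outputs and cytosolic chaperones lie farthest from 0 in the left-over artery, at 1.92 and -1.19, and all genes tested lie at -0.01 and -0.03.

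Of genes tied to the known roles of Poldip2, none in the 5 lists of this paragraph was called by edgeR, DESeq2 or limma voom. The median mean effects of these lists ran from -0.37 to 0.13. Of 17 partners and replication accessory genes, 1 had an unadjusted edgeR p under 0.05 and the median was 0.12; Pcna had a mean effect of -0.05, Pold1 of 0.31, and Nox4, the oxidase that Poldip2 acts on, of 0.30 (edgeR adjusted p = 0.724). Of 23 genes of lipoylation, the Clp protease and the citric acid cycle, 3 reached that p, all higher, and 21 were above 0, with a median of 0.13; Lias (lipoic acid synthetase) had 0.29 (edgeR adjusted p = 0.204) and Clpx 0.12. Of 22 nuclear subunits of oxidative phosphorylation, 3 reached it, all higher, and all 22 were above 0, with a median of 0.11. Of 13 mitochondrially encoded genes, 4 reached it, all lower, and 12 were below 0, with a median of -0.37. The share of mitochondrial counts stood apart in 1 left-over high library, labelled knockout 1, at 0.951% against 0.377% to 0.466% in the other high and 0.379% and 0.414% in the low libraries; in the flushed fraction it was 0.317% to 0.415% in the high and 0.176% to 0.344% in the low libraries. Without labelled knockout 1 the median mean effect of these 13 genes was -0.11 and their left-over median went from -0.43 to 0.02. Of 22 genes of NADPH oxidases and antioxidant enzymes, 1 was higher and 1 lower at that p, with a median of 0.10.

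Matrix genes had opposite medians in the fractions. Of 22, Spon2 alone passed for the mean effect in edgeR, while DESeq2 called 3 and limma voom 1, all lower. The median was -0.30 in the flushed fraction and 0.21 in the left-over artery. In the flushed fraction, 10 had an unadjusted p under 0.05 with a lower level and 0 with a higher one. Lama2, a laminin chain, passed in the flushed fraction with -1.43 (edgeR adjusted p = 0.0406), from 8.78 to 17.9 CPM in the high to 3.50 to 5.74 CPM in the low libraries, and had a left-over effect of 0.07. Igsf10, an immunoglobulin superfamily gene outside the list, passed there with -1.74 (edgeR adjusted p = 0.0406) and had 0.40 in the left-over artery. Neither difference between fractions passed (edgeR adjusted p = 0.119 and 0.101). The 15 adventitial fibroblast markers had a flushed median of -0.84 and a left-over median of 0.07, with 0 called for the mean by edgeR, 3 at an unadjusted p under 0.05 and 1 called by DESeq2; their part in the flushed matrix values was not tested.

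The other lists held 1 called gene. Of 14 genes in the Hippo list, Nuak2 fell, with a median of -0.29 over the list. That list holds pathway members such as Yap1, Lats2 and Tead4 as well as targets. None passed for the mean effect in edgeR among 15 p53 targets (median 0.03), 17 immediate early factors (-0.32), 19 vasoactive genes (0.16), 16 genes of DNA replication and proliferation (-0.07), 16 interferon response genes (0.02) and 12 Kruppel-like factors (-0.07). In these 6 lists 3, 6, 5, 2, 2 and 1 genes had an unadjusted p under 0.05, and DESeq2 called 1 p53 target, 2 vasoactive genes and 1 Kruppel-like factor. The 11 adipocyte markers were all above 0, with a median of 1.09 and 2 at an unadjusted p under 0.05. Of them, edgeR called 0 and DESeq2 called 1, higher. The 12 macrophage markers had a median of 0.13, with 0 at that p, 0 called by edgeR and 0 by DESeq2 or limma voom.

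The remaining called genes were mainly left-over responses. Higher in the low set were Cdc25b, a cell cycle phosphatase (0.69, edgeR adjusted p = 0.0236), Ktn1, the kinesin-binding protein kinectin (0.45, 0.0278), Casp4, an inflammatory caspase (0.59, 0.0278), Ehhadh, a peroxisomal enzyme of fatty acid oxidation (1.09, 0.0286), and Cir1, a transcriptional corepressor (0.60, 0.0286). Ehhadh stood at 6.51 to 11.6 CPM in the left-over high libraries and at 44.3 and 18.2 CPM in the low ones. Lower were Banp, a DNA-binding nuclear protein (-1.13, edgeR adjusted p = 0.0283), Siah2, a ubiquitin ligase (-0.82, 0.0278), and Jmjd6, a hydroxylase (-0.53, 0.0276). Banp stood at 26.4 to 32.3 CPM in the left-over high libraries and at 10.3 and 6.84 CPM in the low ones. All 8 overlapped in the flushed fraction. Chosen after their values were seen, Pik3ip1, an inhibitor of phosphoinositide 3-kinase, rose by 1.10 (edgeR adjusted p = 0.0296) and Tuba1c, an alpha tubulin with near-identical family members, fell by 0.53 (edgeR adjusted p = 0.03).

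The difference of the effects passed in Nr1d2, Mir22hg and Npy1r. Mir22hg, the host transcript of a microRNA, stood at 59.3, 56.1, 44.5 and 56.5 CPM in the flushed high libraries and at 53.9, 54.8, 49.1 and 45.8 CPM in the low ones, and at 20.2, 14.97, 18.0 and 17.4 CPM against 37.1 and 35.6 CPM in the left-over artery. The sets overlapped in the flushed fraction and lay apart in the left-over artery, and the left-over effect less the flushed one was 1.13 ± 0.17 (edgeR adjusted p = 0.0422).

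Npy1r, a receptor for neuropeptide Y, had effects of opposite sign in the fractions. It stood at 0.750, 0.714, 1.56 and 1.02 CPM in the flushed high libraries and at 3.97, 4.13, 2.34 and 2.55 CPM in the low ones, and at 54.5, 63.7, 46.8 and 44.1 CPM against 24.1 and 30.1 CPM in the left-over artery. All low libraries were above the high ones in the flushed fraction and below them in the left-over artery. Npy1r was far less abundant in the flushed fraction, and the part of smooth muscle RNA in its flushed values was not tested. The effects were 1.70 (edgeR adjusted p = 0.0406) and -0.95 (edgeR adjusted p = 0.0795), and their difference was -2.65 ± 0.36 (edgeR adjusted p = 0.0138). Loxl4, Ptch1 and Prex1, with larger left-over effects, and Sf3a1, Ier5, Mthfd2, Nup35 and Ehd1, with lower ones, were next in rank and did not pass; of them, Loxl4 (a lysyl oxidase) had a difference of 1.23 (edgeR adjusted p = 0.0938) and Mthfd2 of -1.98 (edgeR adjusted p = 0.119).

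How firmly a gene held depended on single libraries. With each of the 14 libraries left out in turn, edgeR called between 7 and 131 genes for the mean effect; 7 were called without endothelial control 1, without endothelial control 3 and without left-over labelled control 2, and 131 without endothelial knockout 1. Nr1d2, Spon2 and Dnajb4 were called in all 14 of these fits, Stk32a, Dnajb1 and Mthfd2 in 13, and none of the 54 genes changed sign in any. Each fit without 1 left-over low library rests on a lone left-over low library, assumed to vary like the other groups. Without endothelial control 3 and endothelial knockout 1, which were the highest of their groups in fibroblast and macrophage markers, 197 genes were called, among them 49 of the 54; that choice was made after seeing the data. In the authors' deposited table, 7 genes other than Poldip2 were called in both of its comparisons (Dnajb4, Susd5, Nfil3, Myh11, Pik3c2b, Ptp4a3 and Spon2), all 7 in the same direction and all 7 among the 54; that table includes these libraries and is not independent.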

How the data were processed

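RNA was sequenced from 8 flushed and 6 left-over carotid libraries, grouped by the labels. The submitters' processing notes name TopHat, STAR 2.5, HTSeq 0.6.1, STAR-Fusion, edgeR 3.16.5 and DESeq2, with no role or order. The authors deposited raw counts per gene and library, and every test used these counts. They also deposited FPKM values, scaled to gene length and library size, used to check the labels, and log2 fold changes with adjusted p-values, used to name genes called in the authors' deposited table. The notes name the build mm9, but the deposited coordinates are those of GRCm38. The sources do not state strandedness, so antisense and overlapping genes cannot be told apart.

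Of 35275 genes, 21464 passed filterByExpr (minimum count 10, minimum total 15). Counts were scaled by TMM over 14 libraries and fitted in edgeR 4.0.16 (R 4.3.3, limma 3.58.1) with a mean per labelled group and robust dispersions. The mean effect averages the flushed labelled knockout less control and the left-over labelled control less labelled knockout. The difference is the second less the first. The groups are those of the labels, and the Poldip2 level decided which group of a fraction is called low; this turned the sign of the left-over term against its labels. Tests were two-sided, adjusted by Benjamini-Hochberg over all 21464 genes and called under 0.05. Effects and SE are log2, and log2 CPM used a prior count of 2. Every pair of libraries differed, with a chi-square per degree of freedom of at least 6.82. The model was tested on simulated counts.

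The members, gene lists, rule and tests were chosen with earlier results of these data known. Called genes averaging 1 CPM or more, without overlap in both fractions, were eligible, and up to 15 per direction were named by mean effect. Where fewer passed, those with the smallest p were added, as were 6 per direction for the difference and up to 4 per list. Other named genes were chosen after their values were seen. Alternatives were other scalings, no filter, the repeat number as a block, covariates, DESeq2 1.42.0, limma voom, each fraction alone and each library left out. A floor of 3 counts (0.129 to 0.200 CPM) covers counting error only.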

Additional observations from a re-analysis of the deposited data

Results flagged for a closer look

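In 135 groups of 4 libraries, 8 values lay apart from the other 3 of their group by a gap test at 95%, under which chance marks about 1 in 20 groups. Endothelial knockout 1 gave 4 of them: its clock score was 1.264, its summed adventitial fibroblast markers 6672 CPM, its summed macrophage markers 1066 CPM and its Igsf10 level 3.34 CPM, each above the other flushed low libraries. Endothelial control 2 was low in Grasp at 85.8 CPM, endothelial control 3 was low in Pik3c2b at 39.1 CPM, endothelial control 1 stood apart in Prex1 at 53.2 CPM, and left-over labelled knockout 2 was low in Jmjd6 at 30.2 CPM.

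The low-minus-high effect differed between the fractions in 3 genes by the test of the difference itself. The left-over effect less the flushed effect was 2.17 for Nr1d2, 1.13 for Mir22hg and -2.65 for Npy1r on the log2 scale.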

How the results depend on the processing

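The count of genes called for the mean effect, 55 with Poldip2, was 45 with DESeq2 size factors, 75 with library size only, 48 with TMM within each fraction, 49 without a filter, 50 in limma voom and 43 with the library number as a random block there. It was 426 in DESeq2, 0 with the clock score and 813 with the fibroblast score as covariate, and 197 without endothelial control 3 and endothelial knockout 1, an omission chosen after seeing the data; omitting single libraries gave 7 to 131. The difference (3 genes) gave 2 with library size only, 2 with TMM within each fraction, 8 without a filter, 0 with the clock score (5.5% of genes at an unadjusted p under 0.05; fitted in edgeR only) and 22 with the fibroblast score, 128 in DESeq2, 1 in limma voom, 1 with its random block and 272 without those 2 libraries; single omissions gave 2 to 216. The flushed effect (4 genes) gave 0 with library size only, 0 in limma voom, 0 with its random block and 0 in the fraction alone (1248, 1101, 1097 and 917 genes at an unadjusted p under 0.05), 6 with TMM within each fraction, 11 without a filter, 164 with the fibroblast score, 82 in DESeq2 and 198 without those 2 libraries; single omissions gave 0 to 205, with 205 without endothelial knockout 1. The left-over effect (204 genes, 63.2% higher) gave 128 with DESeq2 size factors, 124 with TMM within each fraction, 214 with library size only (42.1% higher), 349 with the fibroblast score, 644 in DESeq2 and 310 without those 2 libraries; single omissions gave 13 to 292, with 13 without left-over labelled control 1. In the left-over fraction fitted alone, 162 of 20442 genes were called, 46.9% of them higher, and 67 of the 162 were among the 204. The cause of these shifts was not tested. No scaling moved the median of all genes by over 0.1.

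With the repeat number as a block, 19 genes were called for the mean (13 of the 55, Poldip2 among them), 3 for the difference, 2 for the flushed and 54 for the left-over effect. The labels do not say that the numbers pair libraries. Deviations of same-numbered libraries correlated at -0.193, 0.157, -0.187 and 0.0522 in the flushed and -0.0309 and 0.342 in the left-over fraction, and those sharing a library number across fractions at -0.00785, 0.196 and -0.186.

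None of the 54 called genes beside Poldip2 changed sign in any alternative. Of genes not called for the mean, only some were followed through the alternatives, and Dbp, Per1, Per2, Pcna and Nox4 were among those left out. With the clock score as covariate, 13 of those followed changed sign, among them Vwf (-0.063), Cnn1 (-0.074), Ly6a (-0.048), Arntl (0.57), Clock (0.26), Ier3 (-0.38) and Rev1 (-0.0065). So did Mcm3 (-0.029), Mcm2 (-0.23), Yap1 (0.053), Lats2 (0.016), Tead4 (-0.30) and Npy1r (-0.070). Tead4 also did so without left-over labelled control 2, the omissions ranging from -0.079 to 0.78. Depth limits the flushed values of Spon2, Stk32a, Arsi, Ephb2 and Npy1r, which rest on 2 to 81 reads a library. Susd5 rests on 7 to 28 reads in the flushed high libraries, and Ciart on 8 to 16 reads in the left-over high ones. With 2 left-over low libraries the spread of that group is poorly known.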
